A study of Mus musculus with 4 samples.

Results

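The genes described here are 10 components of Wnt signalling, namely the ligand genes *Wnt5a*, *Wnt7a*, *Wnt7b* and *Rspo3*, the transcription factor genes *Lef1*, *Tcf7*, *Tcf7l1* and *Tcf7l2*, and the target genes *Axin2* and *Apcdd1*. The genes were chosen with earlier results of these data known. They were taken by symbol from the 55573 Ensembl genes counted in each library, and all 10 were found. RNA was sequenced from tdTomato-positive cells enriched by fluorescence-activated cell sorting from the basal telencephalon (the preoptic area, POA, in the paper) of mouse embryos at embryonic day 16 (E16, the day of insemination counted as the first). Both genotypes carried the *Hmx3-Cre* driver and the *tdTomato* reporter on a C57BL/6J background. *Dnmt1* WT embryos had the wild-type *Dnmt1* gene, and in *Dnmt1* KO embryos (*Dnmt1 loxP2*, from the strain B6;129S-Dnmt1tm4Jae/J) Cre removed loxP-flanked exons, which leaves a null allele in cells with a history of *Hmx3* expression. DNMT1 is the enzyme that maintains CpG methylation of DNA through cell division. There were 2 libraries per genotype, from cells pooled over 12 WT and 6 KO embryos. The labels call them biological replicates and the paper technical duplicates, so the p-values measure the spread between libraries, which may be technical. The sex of the embryos is not given.

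Wnt proteins are secreted, lipid-modified ligands that bind Frizzled receptors together with the co-receptors LRP5 and LRP6. In the canonical branch this frees β-catenin from a destruction complex of AXIN, APC and GSK3, and β-catenin then binds TCF/LEF factors on DNA and turns repressed target genes on. R-spondins strengthen the signal by binding LGR receptors and removing the ubiquitin ligases RNF43 and ZNRF3, which otherwise clear Frizzled from the cell surface. In the embryonic nervous system WNT7A and WNT7B are known for guiding vessels into the brain, and TCF7L2 for its roles in thalamic neurons and in maturing oligodendrocytes.

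Library totals lay between 8075102 and 9995968 counts. Levels are given as CPM, the counts of a gene scaled to a common library size with TMM factors, and 3 counts corresponded to between 0.294 and 0.372 CPM. In all, 16832 genes passed edgeR's filter on low counts and were tested between genotypes with edgeR's quasi-likelihood test and Benjamini-Hochberg adjustment, and a gene with an adjusted p under 0.05 is called higher or lower. Mitochondrial rRNA made up 8.66% of WT replicate 1 and at most 2.32% of each of the other libraries. The targeted gene *Dnmt1* was counted 3103 and 4557 times in the WT libraries and 2383 and 2552 times in the KO libraries, both of the latter being lower, with an edgeR adjusted p of 0.0511. These counts cover the whole gene and not the deleted exons alone. Markers of the labelled cells were present in all libraries, except that *Dbx1*, 1 of 5 markers of the preoptic area, did not pass the filter. *Lhx1*, another of the 5, passed it at few counts, 27 and 10 in WT against 5 and 12 in KO. *Hmx3* was counted 633 and 919 times in WT, against 604 and 851 times in KO, and the 9 inhibitory interneuron markers summed to 1468 and 1331 CPM in WT and 1144 and 1247 CPM in KO.

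Since both genes called higher encode TCF/LEF factors, the bases before their start sites are shown first, as RefSeq gives them on GRCm38.p6. Each is a stretch of 250 bases up to the RefSeq start site, written 5′ to 3′ on the strand of the gene, and capitals mark CpG dinucleotides. *Tcf7l1* lies on the minus strand with the stretch chr6:72789046-72789295, and *Tcf7l2* on the plus strand with an outer start (chr19:55741560-55741809) and an inner start within the gene (chr19:55895071-55895320).
Tcf7l1: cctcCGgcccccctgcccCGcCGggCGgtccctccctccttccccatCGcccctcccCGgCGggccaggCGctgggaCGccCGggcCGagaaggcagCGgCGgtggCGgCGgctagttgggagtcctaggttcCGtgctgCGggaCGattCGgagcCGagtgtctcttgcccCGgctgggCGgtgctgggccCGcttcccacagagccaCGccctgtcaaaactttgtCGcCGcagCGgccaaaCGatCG
Tcf7l2 outer start: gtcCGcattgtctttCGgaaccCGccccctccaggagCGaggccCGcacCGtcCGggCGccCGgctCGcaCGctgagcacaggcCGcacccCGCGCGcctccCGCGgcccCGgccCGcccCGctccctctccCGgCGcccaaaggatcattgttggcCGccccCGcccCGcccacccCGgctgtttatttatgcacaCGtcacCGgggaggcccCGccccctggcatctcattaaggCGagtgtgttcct
Tcf7l2 inner start: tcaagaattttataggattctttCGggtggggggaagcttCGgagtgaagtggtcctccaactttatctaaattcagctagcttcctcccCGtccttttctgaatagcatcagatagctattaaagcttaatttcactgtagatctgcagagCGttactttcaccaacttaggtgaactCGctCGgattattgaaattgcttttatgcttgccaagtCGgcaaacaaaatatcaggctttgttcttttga

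The first 2 stretches are dense in CpG, with 29 CpGs for *Tcf7l1* and 30 for the outer start of *Tcf7l2*, whereas the inner start of *Tcf7l2* has 7. Over the full RefSeq windows of 300 bases, which add 50 bases after the start, the ratio of observed to expected CpG was 0.799, 1.007 and 0.534 in the same order, against a median of 0.384 over 32851 windows of 27025 genes. Windows were available for 6 of the 10 genes, *Wnt7a*, *Axin2*, *Lef1*, *Tcf7*, *Tcf7l1* and *Tcf7l2*, and those of *Wnt5a*, *Wnt7b*, *Rspo3* and *Apcdd1* were not used here. *Wnt7a* (0.97), *Axin2* (0.886) and the first start of *Tcf7* (1.03) were CpG-dense as well, so that this feature is shared by called and uncalled genes.

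The sequence bound by TCF/LEF factors was searched as CTTTG followed by AA, AT, TA or TT, on both strands. It occurred in 2 of the 11 windows of these genes and in 16.9% of all windows, a similar share. The windows of a gene can overlap, as the first pair of *Lef1* does. To show the matches in place, 30 bases around each are given with the motif in capitals. That of *Tcf7l2* begins 14 bases before the inner start, and that of *Lef1*, on the reverse strand, 147 bases before the innermost of its 4 starts.
Tcf7l2 inner start: aaaatatcaggCTTTGTTcttttgattgaa
Lef1 innermost start: caacctcagaaTACAAAGtaggattgcatt
A match describes the letters of the window, and no binding was measured here.

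Of the 10 genes, *Tcf7l2* and *Tcf7l1* were higher in KO and 0 were lower, while 8 were not called. Across all tested genes 7.90% were called, 7.33% higher and 0.570% lower in KO. Of all called genes 92.8% were higher, and 44.7% once each library had been adjusted for trends with exonic length and GC. An unadjusted p under 0.05 was reached by 4 of the 10 genes and by 22.7% of all tested genes. DESeq2 called 2 of the 10 genes and limma-voom 1, each with 0 lower, against 8.87% and 7.81% of all tested genes. Over the 10 genes the log2 fold change was 0.37 in the median, against -0.03 over all tested genes. Since the 10 genes were chosen with earlier results known, these comparisons with all genes are descriptive. In 5 of the 10 genes both KO levels lay above both WT levels, an arrangement found in 28.3% of all tested genes, and in 0 of the 10 they lay below, which 25.2% of all tested genes did. All 10 genes passed the filter, but *Tcf7l1* passed it through the KO libraries alone, being under the minimum of 1.13 CPM in both WT libraries, so that a gene like it could be tested only if it was higher in KO.

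**Figure D1:**
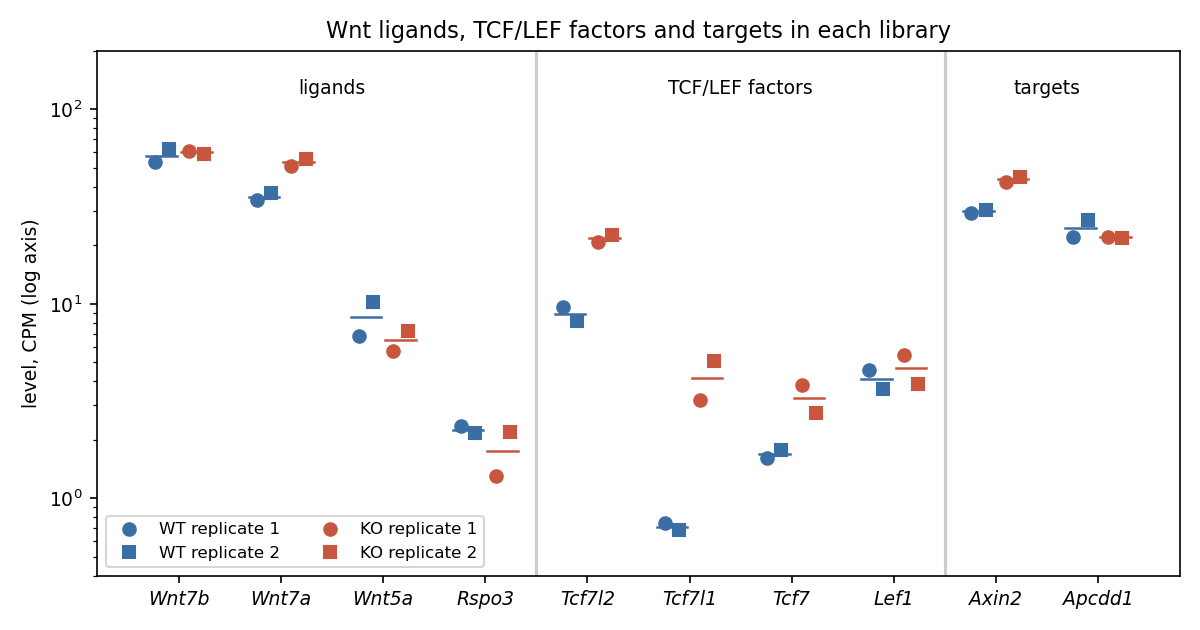
Level of each gene in CPM on a log axis in the 4 libraries (blue WT, red KO, circles replicate 1, squares replicate 2), with the mean of each genotype as a line. Red points stand above blue ones without overlap for *Wnt7a*, *Tcf7l2*, *Tcf7l1*, *Tcf7* and *Axin2*, and the points mix for the other 5 genes.

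*Tcf7l2* encodes the TCF/LEF factor known as TCF4, which can activate or repress depending on its partners. In GRCm38 it spans 55741820 to 55933654 of chromosome 19 on the plus strand, where its exons are free of other annotated genes. The WT libraries held 78 and 83 counts of it and the KO libraries 174 and 206, or 9.68 and 8.13 CPM in WT and 20.7 and 22.7 CPM in KO. Both KO libraries stood at over 2 times the level of either WT library. With 8.91 ± 1.10 CPM (mean ± SD, n = 2) in WT against 21.7 ± 1.42 CPM (mean ± SD, n = 2) in KO, *Tcf7l2* rose by 1.29 on the log2 scale (standard error 0.23, 95% interval 0.75 to 1.83, edgeR adjusted p = 0.0121). It was called in all 10 alternative fits with all libraries, and without KO replicate 2 its adjusted p was 0.0546. In bulk RNA, a different number of expressing cells and a different amount of RNA per cell cannot be told apart, for this gene and those that follow.

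*Tcf7l1*, on chromosome 6 from 72626378 to 72789254 on the minus strand, encodes TCF3, the family member best known as a repressor in stem and progenitor cells. Its counts were 6 and 7 in WT, against 27 and 46 in KO. They correspond to 0.745 and 0.686 CPM in WT and to 3.21 and 5.07 CPM in KO. The WT values lay near each other at few counts, and the KO libraries differed from each other by more than the WT libraries did. *Tcf7l1* rose by 2.52 on the log2 scale (standard error 0.55, 95% interval 1.25 to 3.78, edgeR adjusted p = 0.0281). The call was lost with limma-voom (adjusted p = 0.0507) and without KO replicate 2 (log2 fold change 2.15, adjusted p = 0.424), and with at least 10 counts required in every library the gene was not tested. The antisense gene *Gm15401* shares 4.56% of its exonic bases and had at most 3 counts in a library.

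*Tcf7* and *Lef1* encode the 2 family members that mostly act as activators, and both are themselves targets of the pathway in many tissues. *Tcf7*, on chromosome 11 from 52252371 to 52283014, was found in 13 and 18 counts in the WT libraries, and in 32 and 25 in the KO libraries, that is 1.61 and 1.76 CPM against 3.80 and 2.75 CPM. The groups did not overlap, but the difference did not pass the test (log2 fold change 0.95, 95% interval -0.16 to 2.06, edgeR adjusted p = 0.287). *Lef1*, on chromosome 3 from 131110471 to 131224356, gave 37 counts in each WT library and, in the KO libraries, 46 and 35. These 4 libraries lay between 3.63 and 5.47 CPM with the genotypes intermixed, and the log2 fold change was 0.18 (95% interval -0.71 to 1.08, edgeR adjusted p = 0.822). With a library left out the estimate of *Lef1* ranged from -0.074 (without KO replicate 1) to 0.42 (without KO replicate 2), and it was 0.0065 without WT replicate 2. The antisense gene *Gm43352*, which shares 13.7% of the exonic bases of *Lef1*, had at most 2 counts in a library.

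**Figure D2:**
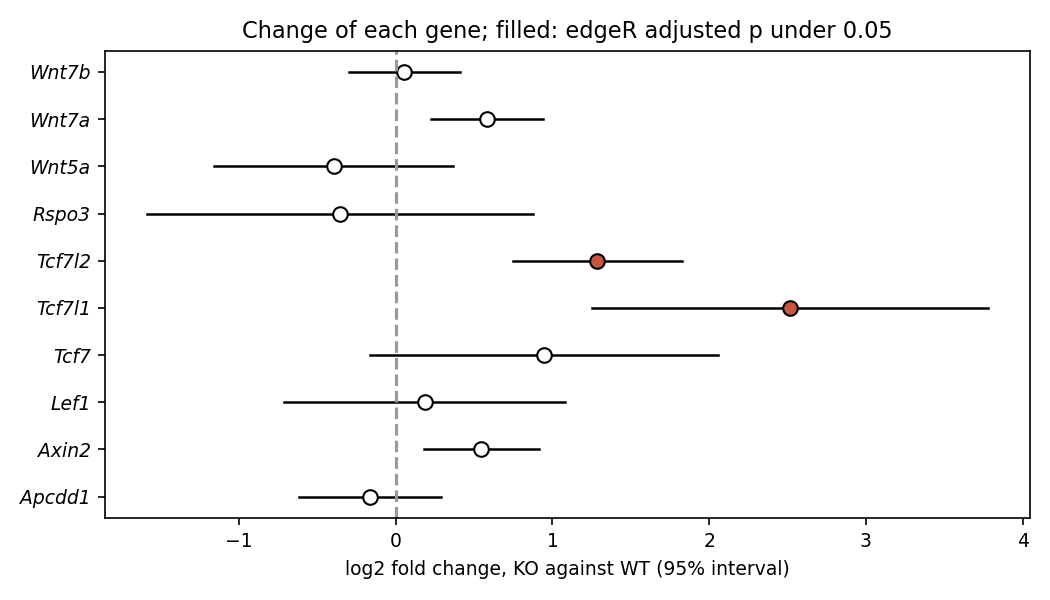
Log2 fold change of each gene (KO against WT, points) with its 95% interval from edgeR (lines), filled where the adjusted p was under 0.05. The intervals of *Tcf7l2* (0.75 to 1.83) and *Tcf7l1* (1.25 to 3.78) lie right of 0 and are filled, and those of *Wnt7a* and *Axin2* also lie right of 0 but are open, since the intervals are not adjusted for the number of genes tested.

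Levels of different genes were compared per kilobase of exon. The 4 TCF/LEF genes summed to 2.43 and 2.19 CPM per kb in WT and to 5.25 and 5.36 in KO, which is 2.30 times as much on average. *Tcf7l2* held the largest share of this sum in each library, with 45.4% and 42.4% in WT and 44.9% and 48.2% in KO. The share of *Tcf7l1* was 7.81% and 7.996% in WT and 15.6% and 24.1% in KO. *Lef1* held 21.5% and 18.9% in WT against 11.9% and 8.18% in KO, and *Tcf7* held 25.3% and 30.7% against 27.6% and 19.6%. Between genotypes the shares of *Tcf7l1* and *Lef1* did not overlap, while those of *Tcf7l2* and *Tcf7* did. The level of *Lef1* itself overlapped, at 0.523 and 0.413 CPM per kb in WT and 0.622 and 0.439 in KO. Its share was smaller in KO because the sum was larger. These shares are descriptive, and with 2 libraries against 2 they were not tested.

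**Figure D3:**
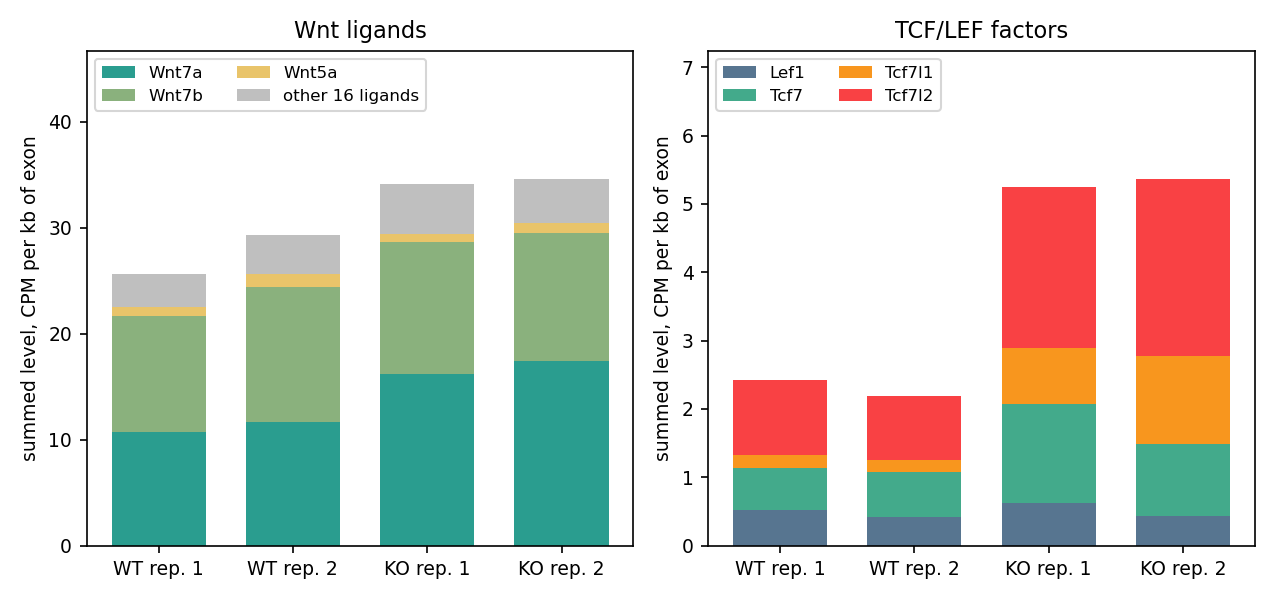
Summed level in CPM per kb of exon (bars from 0) of the Wnt ligand genes, left, and of the TCF/LEF genes, right, in each of the 4 libraries, with colours for the genes. The TCF/LEF bars reach 2.43 and 2.19 in WT and 5.25 and 5.36 in KO, and in the ligand bars *Wnt7a* and *Wnt7b* take most of the height in each library.

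Among the ligands, *Wnt7a* and *Wnt7b* prevailed in both genotypes. Together they held between 83.0% and 85.3% of the level per kb summed over all 19 Wnt genes in each of the 4 libraries. Within this sum *Wnt7a* held 41.9% and 39.7% in WT and 47.4% and 50.4% in KO, and *Wnt7b* held 42.4% and 43.3% in WT and 36.6% and 34.9% in KO, shares that did not overlap between genotypes and were not tested. *Wnt7a*, on chromosome 6 from 91363981 to 91411363, was counted 275 and 377 times in WT, against 432 and 502 times in KO, or 34.1 and 36.9 CPM in WT and 51.4 and 55.3 CPM in KO. Both KO libraries were above both WT libraries. The difference of 0.58 on the log2 scale (standard error 0.15, 95% interval 0.23 to 0.94) did not pass the adjusted threshold (edgeR adjusted p = 0.0615), and it passed in 4 of the 10 alternative fits with all libraries (adjusted p from 0.0253 to 0.0935). It also passed without WT replicate 1 (0.52, adjusted p = 0.0164) and without WT replicate 2 (0.63, adjusted p = 0.00287), but not without KO replicate 1 (0.65, adjusted p = 0.296) or KO replicate 2 (0.53, adjusted p = 0.589). With the adjustment for exonic length and GC the estimate was 0.37.

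*Wnt7b*, on chromosome 15 from 85535437 to 85582473, was the gene of the 10 with the highest CPM. The WT libraries held 430 and 636 counts of it and the KO libraries 515 and 537, which is 53.4 and 62.3 CPM against 61.2 and 59.1 CPM. Both KO values were inside the range of the WT values. Its log2 fold change was 0.06 with an interval of -0.30 to 0.41 (edgeR adjusted p = 0.868), and its sign turned with the adjustment for exonic length and GC (-0.14) and without WT replicate 1 (-0.058). The antisense gene *AU022754* shares 6.62% of its exonic bases and had 9 counts in each WT library and 22 in each KO library.

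*Wnt5a*, a ligand known mainly for β-catenin-independent signalling in cell movement, lies on chromosome 14 from 28504750 to 28527448. Its counts were 55 and 104 in WT, against 48 and 66 in KO, at 6.83 and 10.2 CPM against 5.71 and 7.27 CPM. KO replicate 2 lay between the WT libraries, and the log2 fold change was -0.40 (95% interval -1.16 to 0.37, edgeR adjusted p = 0.521). The estimate of *Wnt5a* was -0.082 without WT replicate 2 and -0.65 without WT replicate 1, and -0.22 and -0.58 without KO replicate 1 and KO replicate 2. *Rspo3*, an R-spondin gene on chromosome 10 from 29452416 to 29535867, was counted 19 and 22 times in WT, against 11 and 20 times in KO. The levels were 2.36 and 2.16 CPM in WT and 1.31 and 2.20 CPM in KO, so that KO replicate 1 alone stood apart, and the log2 fold change was -0.35 (95% interval -1.58 to 0.88, edgeR adjusted p = 0.741). It was -0.020 without KO replicate 1 and -0.77 without KO replicate 2. Over *Wnt5a*, the antisense gene *Gm2670* shares 4.58% of the exonic bases and had 5 and 22 counts in the WT libraries and 3 and 16 in the KO libraries, in each genotype fewer in replicate 1, as for *Wnt5a* itself. The antisense gene *Gm48159* shares 13.1% of the exonic bases of *Rspo3* and had at most 1 count in a library.

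Both target genes act as brakes on the pathway that switches them on. *Axin2*, on chromosome 11 from 108920349 to 108950783, encodes a scaffold of the destruction complex and is widely used as a readout of canonical signalling. The WT libraries held 237 and 310 counts of it and the KO libraries 357 and 408, at 29.4 and 30.4 CPM in WT and 42.4 and 44.9 CPM in KO. The 2 WT libraries were within 1 CPM of each other, and both KO libraries lay above them. The difference of 0.55 on the log2 scale (standard error 0.16, 95% interval 0.18 to 0.91) did not pass the adjusted threshold (edgeR adjusted p = 0.0843). It passed in 1 of the 10 alternative fits with all libraries, that with the replicate number as a block, and the adjusted p ranged from 0.0448 to 0.156 (DESeq2). It passed without WT replicate 1 (0.52, adjusted p = 0.0258) and without WT replicate 2 (0.56, adjusted p = 0.0167), but not without KO replicate 1 (0.60, adjusted p = 0.390) or KO replicate 2 (0.51, adjusted p = 0.660). With the adjustment for exonic length and GC the estimate of *Axin2* was 0.35. The antisense gene *Gm11670* shares 3.80% of its exonic bases and had at most 9 counts in a library.

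*Apcdd1*, on chromosome 18 from 62922231 to 62961179, encodes a membrane protein that binds Wnt ligands and LRP5 and inhibits them. Its counts were 178 and 276 in WT and 186 and 198 in KO, or 22.1 and 27.04 CPM in WT and 22.1 and 21.8 CPM in KO. Both KO libraries were at the level of WT replicate 1. The log2 fold change was -0.16 with an interval of -0.62 to 0.29 (edgeR adjusted p = 0.662). The estimate was -0.020 without WT replicate 2 and -0.31 without WT replicate 1, and -0.062 with library size as the only scaling.

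Ordered by the level per kb of exon in WT, *Wnt7b* and *Wnt7a* came first with overlapping values (10.9 and 12.7, and 10.8 and 11.6 CPM per kb), followed by *Axin2* at 5.34 and 5.52. *Apcdd1* was next at 1.71 and 2.10, and then *Wnt5a* (0.873 and 1.303) and *Tcf7l2* (1.103 and 0.927), whose values overlapped. *Rspo3*, *Tcf7*, *Lef1* and *Tcf7l1* followed in this order without overlap, from 0.763 down to 0.175 CPM per kb. In KO the order of the first genes was *Wnt7a* (16.2 and 17.4), *Wnt7b* (12.5 and 12.1) and *Axin2* (7.71 and 8.16), each apart from the next. *Tcf7l2* (2.36 and 2.59) stood above *Apcdd1* (1.72 and 1.69) there, and *Tcf7l1* (0.818 and 1.291) overlapped with *Tcf7* and *Wnt5a*, whereas in WT it was the lowest of the 10.

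Beyond these genes, 102 other components of the pathway were examined in lists by role, of which 74 passed the filter. In KO 12 were higher and 1 was lower, or 17.6% of those tested, against 7.90% of all tested genes, and the log2 fold change was 0.12 in the median of the 74 genes. The lists were chosen with earlier results of these data known, so this comparison of shares is descriptive and does not test the pathway. With the adjustment for exonic length and GC, 15 were higher and 17 lower, where 23.2% of all tested genes were called, 10.4% higher and 12.9% lower. The sign of these 13 genes was the same in each alternative fit in which they were tested. Of the 74 genes, 4 had passed the filter through the KO libraries alone.

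Among the R-spondin receptors and receptor-turnover ligases, 3 of 4 tested genes rose. *Lgr6*, which encodes an R-spondin receptor, was counted 9 and 26 times in WT, against 135 and 176 times in KO, and rose by 3.23 on the log2 scale (edgeR adjusted p = 0.00155). Its relative *Lgr4* rose by 1.85 and the ligase gene *Znrf3* by 1.32 (edgeR adjusted p = 0.00268 and 0.00376). The fourth gene, *Rnf43*, gave 7 counts in each WT library, against 14 and 29 in KO, passed the filter through the KO libraries alone, and was not called (edgeR adjusted p = 0.166). Among the R-spondin ligands, *Rspo3* was tested, with the 11 to 22 counts in a library given above, and *Rspo1*, *Rspo2* and *Rspo4* had at most 7 counts in a library and were not tested.

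Of 9 tested Frizzled receptor genes, 3 were higher and 0 lower, while 7 had an unadjusted p under 0.05, as did 22.7% of all tested genes. Among the 7 was *Fzd10*, which had passed the filter through the KO libraries alone. The 3 called were *Fzd4* (1.76), *Fzd9* (1.53) and *Fzd2* (1.16 on the log2 scale, with edgeR adjusted p = 0.0226, 0.0174 and 0.00627). With a library left out, *Fzd4* was between 1.49 and 2.10 and lost its call without KO replicate 1, and *Fzd9* was between 1.41 and 1.65 and lost its call without KO replicate 2. *Fzd3*, by CPM the most abundant of the receptors with 4198 and 3579 counts in the WT libraries and 2739 and 2626 in the KO libraries, was lower in both KO libraries than in both WT libraries without passing the test (edgeR adjusted p = 0.181). Among the 8 co-receptor genes *Lrp5* rose by 1.19 (edgeR adjusted p = 0.00863), and the log2 fold change of *Lrp6* was -0.15 (edgeR adjusted p = 0.561). *Wls*, whose product carries Wnt proteins to the cell surface, was counted 72 and 95 times in WT, against 186 and 266 times in KO, and rose by 1.49 (edgeR adjusted p = 0.00631). *Porcn*, which encodes the acyltransferase that lipidates them, had a log2 fold change of 0.01.

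Of 7 tested inhibitor genes, *Dkk3* and *Kremen1* rose, by 2.63 and 1.16 on the log2 scale (edgeR adjusted p = 0.000313 and 0.0132). The counts of *Dkk3* were 38 and 68 in WT, against 301 and 323 in KO. *Kremen1* lost its call without KO replicate 2 (0.996 to 1.33 with a library left out). DKK3 belongs to the Dickkopf family but, unlike its relatives, is not an established blocker of LRP6, and KREMEN1 is a receptor for Dickkopf proteins. Of the 5 inhibitor genes not called, *Sfrp1* (-0.63, edgeR adjusted p = 0.113) and *Draxin* (-0.17, edgeR adjusted p = 0.538) were below WT in both KO libraries. *Sfrp5* (1.77, edgeR adjusted p = 0.155), which passed the filter through the KO libraries alone, was above, and 2 overlapped. Of 8 other target genes tested, *Tnfrsf19* (1.48, edgeR adjusted p = 0.00183) and *Znrf3* rose, and 6 were not called. *Znrf3* and *Rnf43* are also in the list of receptor-turnover ligases above, so the call of *Znrf3* is the same one. The log2 fold changes of those 6 ranged from -0.27 (*Nkd2*) to 1.64 (*Rnf43*).

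Of the 12 genes of the destruction complex and the Dishevelled family 0 were called by edgeR, DESeq2 or limma-voom and 0 had an unadjusted p under 0.05, with log2 fold changes from -0.39 (*Csnk1a1*) to 0.27 (*Dvl3*). In 7 of the 12 both KO levels lay below both WT levels and in 1 above, against 25.2% and 28.3% of all tested genes. *Ctnnb1*, the gene of β-catenin, was at -0.27 (edgeR adjusted p = 0.307). Among 12 TCF cofactors *Pygo1*, whose product links β-catenin to chromatin, fell by 0.63 (edgeR adjusted p = 0.0379), and its call was lost with the library size as the only scaling, with at least 10 counts in every library, and without either KO replicate (-0.73 to -0.55 with a library left out). The other Wnt ligands were low. Of 16 genes 4 were tested, and 0 were called by any of the 3 tools or had an unadjusted p under 0.05. *Wnt5b* had the largest log2 fold change of the 4, 1.09, with counts of 11 and 15 in WT, against 27 and 26 in KO (edgeR adjusted p = 0.235).

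The planar polarity list held the largest change among the pathway lists. *Daam2*, which encodes a formin that binds Dishevelled, was counted 55 and 52 times in WT, against 3192 and 3544 times in KO. With 5.96 ± 1.22 CPM (mean ± SD, n = 2) in WT against 385 ± 7.66 CPM (mean ± SD, n = 2) in KO, it rose by 6.02 on the log2 scale (edgeR adjusted p = 3.53e-06). Its relative *Daam1* was at -0.19 (edgeR adjusted p = 0.441), and edgeR called none of the other 10 tested genes of the list. *Vangl1*, which encodes a membrane protein of the planar polarity pathway, was nearest to the threshold (1.43, edgeR adjusted p = 0.0533) and was called higher by DESeq2 (adjusted p = 0.0473) and by limma-voom (adjusted p = 0.0467).

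**Figure D4:**
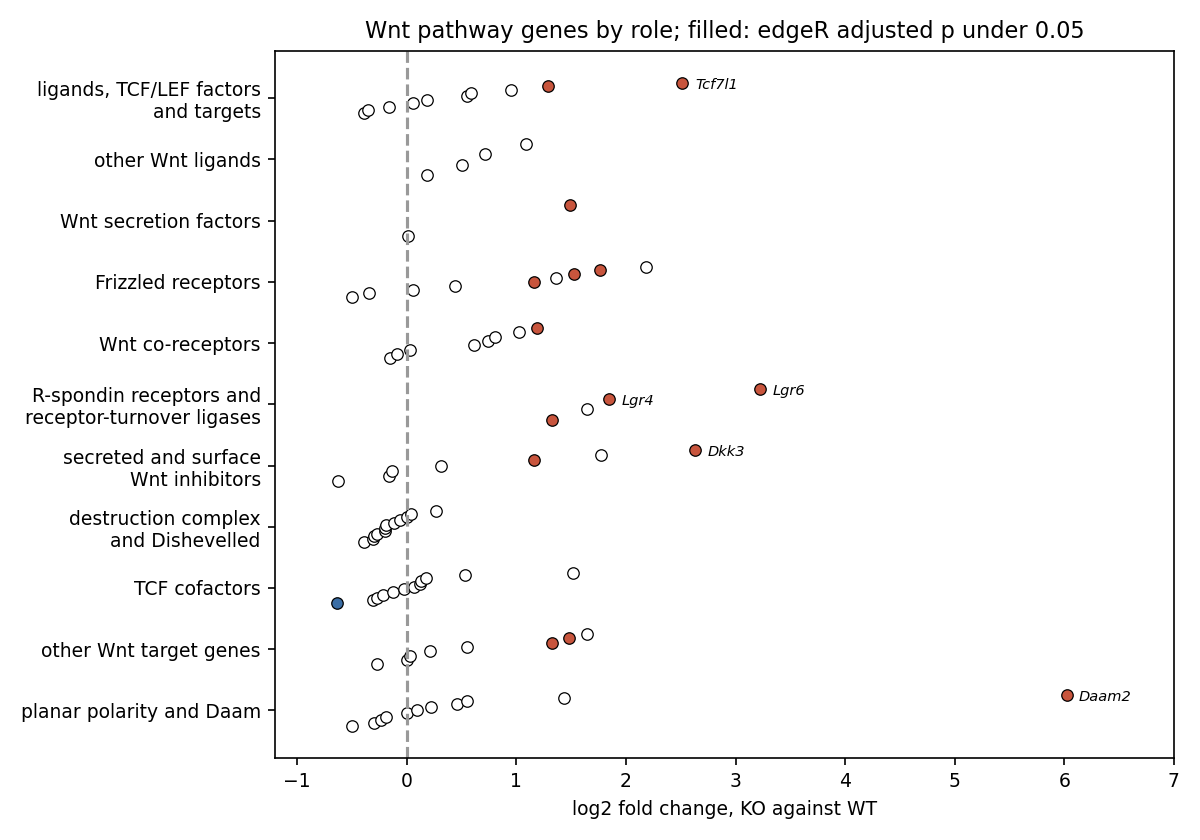
Log2 fold change (KO against WT) of each tested Wnt pathway gene, 1 point per gene in rows by role, filled red where higher and blue where lower at an edgeR adjusted p under 0.05. Filled points lie on the right in the rows of receptors, R-spondin receptors and inhibitors, the row of the destruction complex holds open points between -0.39 and 0.27, and *Daam2* stands alone at 6.02.

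Several lists of cell type markers also differed between genotypes. The 12 astrocyte markers were all higher in KO, and their summed level was 291 to 298 CPM in WT and 4199 to 4380 CPM in KO. *Gfap* had 0 counts in both WT libraries, against 149 and 198 in KO, and *Aqp4* was counted 0 and 4 times in WT, against 591 and 567 times in KO. Of 10 oligodendrocyte markers 9 were higher (136 to 162 CPM in WT, 598 to 622 CPM in KO), with *Opalin* at 0 counts in both WT libraries and at 13 and 27 in KO. All 8 mural cell markers were higher (63.3 to 72.3 CPM against 421 to 427 CPM), with *Acta2* at 0 counts in both WT libraries and at 652 and 800 in KO. Of the genes called higher in these lists, 3 astrocyte, 2 oligodendrocyte and 2 mural cell markers, *Gfap*, *Opalin* and *Acta2* among them, had passed the filter through the KO libraries alone. In bulk RNA, other cells in the sorted pool and marker expression in the labelled cells cannot be told apart. The relation of these markers to the levels of *Tcf7l2*, *Tcf7l1*, *Daam2* and the other genes that rose was not tested.

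Markers of other cell types were examined as well, and sums are over all markers of a list, tested or not. Of 6 oligodendrocyte precursor markers 1 was higher (1488 to 1558 CPM in WT, 1888 to 1999 CPM in KO), and of 10 radial glia markers 2 were higher (1467 to 1602 CPM against 1952 to 2043 CPM), of which *Hopx* had passed the filter through the KO libraries alone. Of 9 tested endothelial markers, which mark the cells that respond to WNT7A and WNT7B at the blood-brain barrier, 0 were called by any of the 3 tools and 4 had an unadjusted p under 0.05, as did 22.7% of all tested genes (22.5 to 24.4 CPM against 27.8 to 30.5 CPM). Of these 4, *Cldn5* (-1.46) and *Kdr* (-0.84) had negative log2 fold changes, and *Flt1* (1.11) and *Slco1a4* (3.69) had positive ones, *Slco1a4* having passed the filter through the KO libraries alone. Of 7 tested microglia markers 1 was higher (28.4 to 31.3 CPM against 53.3 to 58.8 CPM), as was 1 of 3 tested fibroblast markers (22.4 to 22.96 CPM against 34.8 to 35.02 CPM). Of the microglia markers DESeq2 called 2, with 0 lower, and limma-voom called 0. The 6 thalamic neuron markers, examined because *Tcf7l2* and *Lef1* also mark the thalamus, summed to 181 to 206 CPM in WT and 190 to 191 CPM in KO, and their members moved in different directions. *Rora* was higher (2.25, edgeR adjusted p = 0.000186), while *Prox1* (-0.61, edgeR adjusted p = 0.0510) and *Slc17a6* (-0.59, edgeR adjusted p = 0.0951) were below WT in both KO libraries without passing the test. DESeq2 called 2 genes of this list, 1 of them lower. Choroid plexus markers summed to 54.6 to 70.7 CPM in WT and 8.56 to 9.36 CPM in KO, where 1 of 4 tested genes, *Ttr*, was lower. *Ttr* made up most of the WT sum, with 40.8 and 55.3 CPM in WT and 0.951 and 1.10 CPM in KO. Of the 4 tested genes 3, *Ttr* among them, lay below WT in both KO libraries, and *Kl* overlapped (log2 fold change 0.20). Of 9 general neuron markers 3 were lower (6360 to 6900 CPM against 4726 to 4745 CPM). The 9 inhibitory interneuron markers and the 4 tested preoptic area markers held 0 called genes by each of the 3 tools. An unadjusted p under 0.05 was reached by 2 and 1 of them, and by 22.7% of all tested genes. Both KO levels lay below both WT levels in 5 and 1 of them and above in 0, against 25.2% and 28.3% of all tested genes. The preoptic area markers summed to 272 and 275 CPM in WT and 216 and 243 CPM in KO.

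**Figure D5:**
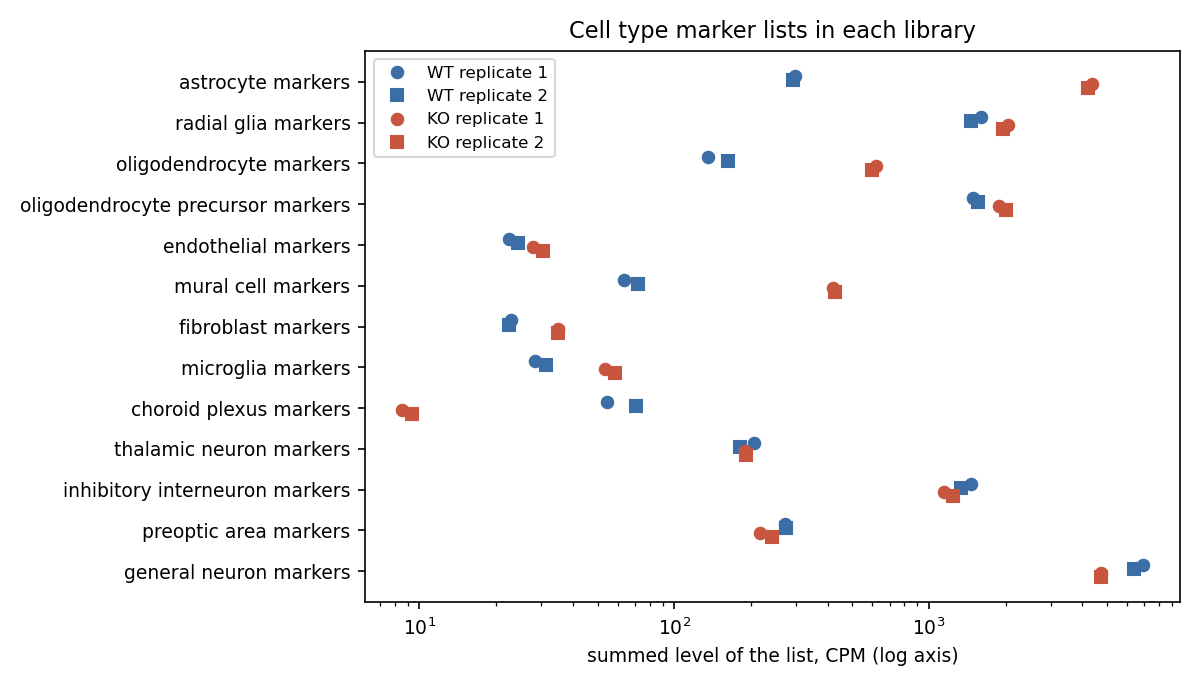
Summed level in CPM on a log axis of each cell type marker list in the 4 libraries (blue WT, red KO, circles replicate 1, squares replicate 2). Red points lie far to the right of the blue ones for astrocyte (291 to 298 CPM against 4199 to 4380 CPM), oligodendrocyte and mural cell markers. They lie to the left for choroid plexus markers, whose WT sum is mostly *Ttr*, and close to the blue ones for endothelial, thalamic and inhibitory interneuron markers.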

How the data were processed

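Reads of each library were counted by the authors on Ensembl genes, and these raw counts were deposited. The submitters' processing notes name CASAVA 1.8.2, STAR 2.5.2a, featureCounts 1.5.0-p1 and the builds mm10 and GRCm38, and the annotation release, strand and overlap settings are not given in the sources used here. Without strand, reads of a gene and of an antisense gene cannot be told apart where their exons overlap. Genotype and replicate number came from the sample titles. Of 55573 identifiers, 55480 matched GENCODE M21, which gave symbols, positions and exonic lengths. Genes were filtered with filterByExpr, scaled by TMM and tested with edgeR 4.0.16 (limma 3.58.1, R 4.3.3) with genotype as the only term. Standard errors and 95% intervals were derived from the test statistic. The genes and lists were chosen with earlier results of these data known. Other pathway genes were named as the up to 3 largest called changes of a list, and *Rnf43*, *Fzd3*, *Fzd10*, *Lrp6*, *Porcn*, *Nkd2*, *Csnk1a1*, *Dvl3*, *Ctnnb1*, *Wnt5b*, *Daam1*, *Vangl1*, *Prox1*, *Slc17a6*, *Hopx*, *Cldn5*, *Kdr*, *Flt1*, *Slco1a4* and *Rspo1*, *Rspo2* and *Rspo4* after their values were seen. So were *Sfrp1*, *Sfrp5*, *Draxin*, *Kl* and *Lhx1*. Motifs were searched in RefSeq windows (GRCm38.p6). Alternatives were DESeq2 1.42.0, limma-voom, other scalings and filters, the replicate number as a block, a spline correction of each library for gene length and GC content, other thresholds, and each library left out, where the lone library is assumed to vary like the others. On simulated counts with 16189 genes tested, edgeR recovered 51% of changes of 1 and 98% of changes of 2 on the log2 scale, and 9.70% of its calls were false. Counting intervals and floors cover counting error only.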

Additional observations from a re-analysis of the deposited data

How the results depend on the processing

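Of 139 alternative values of the 10 genes, 123 kept their direction and side of the threshold. *Tcf7l2* stayed between 1.20 and 1.40 on the log2 scale in 10 alternative fits. Estimates turned sign for *Wnt7b* after the length and GC correction (-0.14, with the replicate block -0.15) and without WT replicate 1 (-0.058, and -0.058 to 0.16 with a library left out), and for *Lef1* without KO replicate 1 (-0.074, and -0.074 to 0.42). The number of the 10 genes called, 2, became 1 with limma-voom or at least 10 counts in every library, 4 with the replicate block or an adjusted p under 0.1, and 0 under 0.01, and ranged from 0 to 4 with a library left out. Among the other pathway genes 13 became 32 with the correction, 33 with the block and correction together, and 10 to 26 with a library left out. Over all genes 1329 became 2363 without a filter, 883 with at least 10 counts, 2244 with the block, 3911 with the correction, 4711 with both, 740 at 0.01, and 951 to 4209 with a library left out. The larger counts came without either WT library, where the spread came from the KO libraries (biological coefficient of variation 0.103, WT 0.234). With the replicate block *Wnt7a* (0.59, adjusted p = 0.0253) and *Axin2* (0.55, adjusted p = 0.0448) were also called, and on simulated counts 16.1% of the calls with the block were false, against 9.70% without it. Same-numbered libraries deviated together with a correlation of 0.137 across genes, and the sources used here do not say what the numbers mark. Without a filter and with block and correction together, the prior degrees of freedom were infinite. Library size as the only scaling moved the median of all genes by 0.11 on the log2 scale. The fewest counts, at most 46 in a library, stood behind *Lef1*, *Tcf7*, *Tcf7l1* and *Rspo3*, and the power at such counts was not tested.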
